A study of Mus musculus with 8 samples.

Results

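The transcripts described here are those of 9 mouse genes that write, copy or remove cytosine methylation in DNA, out of 39017 genes in the count table. They were taken by gene symbol, and each matched 1 row. Dnmt1, Uhrf1 and Hells act in copying methylation or in opening chromatin for it, and Uhrf2 is the paralog of Uhrf1. Dnmt3a and Dnmt3b set new marks, and Tet1, Tet2 and Tet3 oxidise them. All 9 passed the filter on low counts. RNA was sequenced from cultured satellite cells, the resident stem cells of muscle fibres, which came from the diaphragm and the abdominal muscle of Pax3GFP/+ adults. These mice carry a green fluorescent protein reporter at 1 Pax3 allele. The 8 libraries were 4 from cells grown for 4 days with 10 µM sal003 and 4 from cells grown as long with the vehicle DMSO. Sal003 blocks the dephosphorylation of the translation factor eIF2α. Cells of both conditions were plated at 7500 per 35 mm dish, and all carried the Pax3GFP/+ genotype, so no library without the reporter allele was compared. No source used here gives age in weeks, sex or the number of mice. The comparison asks which of these transcripts differ with the inhibitor, and DNA methylation itself was not measured.

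Methylation of cytosine at CpG dinucleotides is lost by dilution when DNA is replicated unless it is copied. UHRF1 binds the half-methylated DNA behind the replication fork and recruits DNMT1, which methylates the new strand, and HELLS (also called LSH) is a chromatin remodeller needed for methylation of repeats. DNMT3A and DNMT3B methylate unmarked DNA. TET enzymes oxidise methylcytosine to hydroxymethylcytosine and further products, which the glycosylase TDG can excise, and UHRF2, the paralog of UHRF1, binds hydroxymethylcytosine.

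Total counts per library ranged from 32753929 to 40234107. DMSO replicate 2 stood apart from the other libraries: 14437 genes had at least 1 count in it against 16561 to 18076 in the other 7, and its Spearman correlation with other DMSO libraries was 0.946 to 0.949, against 0.977 to 0.979 among those 3. Results it touches are therefore given with and without it. Myoblast markers were present in every library, with Myod1 at 827 to 1020.3 and Pax7 at 65.2 to 101 CPM (the counts of each library brought to 1 common total, with the TMM method of scaling). Of 11 satellite cell and myoblast markers 2 rose (Pax7 and Met), 4 fell (Des, Ncam1, Cdh15 and Itga7) and 5 did not pass. For this list and the marker lists below, the share over all tested genes was 10.6% higher and 12.2% lower (edgeR adjusted p below 0.05). Des fell from a mean of 2941 to 1171 CPM and Ncam1 from 2285 to 1158 CPM. The summed level of the list was 6628 to 7431 CPM in DMSO and 4036 to 4366 CPM in sal003. Transcripts of differentiated muscle moved with the condition: 25 of 25 tested fell, and their share of all counts was 8.17% ± 1.15 (SD, n = 4) in DMSO against 2.40% ± 0.140 in sal003. Of 8 markers of smooth muscle and pericytes 6 were tested and 4 fell: Acta2, Abcc9, Notch3 and Cspg4. The summed level of the list was 1817 to 2010.5 CPM in DMSO and 596 to 778 CPM in sal003. Acta2 made up most of it, at means of 1545 and 470 CPM, while Myh11, Rgs5 and Kcnj8 had means of at most 0.804 CPM. Of 10 fibro-adipogenic markers 6 were tested and 2 fell, Gsn and Tcf4, with summed levels of 418 to 450.04 and 338 to 358 CPM, while Dcn, Lum and Dpt had no counts. Immune (Ptprc, Adgre1 and Cd3e without counts), endothelial (Emcn and Cldn5 without counts) and Schwann markers (S100b without counts) summed to at most 7.79 CPM in any library. The part of these shifts in the results below was not tested.

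The promoters of the 3 genes that rose in sal003 (described next) are shown together with that of Uhrf2, whose product is the paralog of UHRF1 and whose transcript did not pass the test. Sequences are from RefSeq on GRCm38.p6, in the gene's own direction 5′ to 3′, from 250 bases before to 50 bases after an annotated start. Capitals mark words of the E2F consensus, the motif of the E2F factors that act at the entry into S phase. The words searched on both strands were TTTCCCGC, TTTGGCGC, TTTCGCGC and TTTGCCGC.
Dnmt1, chr9:20952574-20952873, minus strand: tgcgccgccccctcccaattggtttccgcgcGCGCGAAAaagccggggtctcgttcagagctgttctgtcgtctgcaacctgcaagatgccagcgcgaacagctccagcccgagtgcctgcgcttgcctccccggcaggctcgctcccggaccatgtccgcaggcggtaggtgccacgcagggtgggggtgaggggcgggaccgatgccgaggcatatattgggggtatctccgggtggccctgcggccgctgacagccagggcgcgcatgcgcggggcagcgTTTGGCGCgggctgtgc
Uhrf1, chr17:56304063-56304362, plus strand: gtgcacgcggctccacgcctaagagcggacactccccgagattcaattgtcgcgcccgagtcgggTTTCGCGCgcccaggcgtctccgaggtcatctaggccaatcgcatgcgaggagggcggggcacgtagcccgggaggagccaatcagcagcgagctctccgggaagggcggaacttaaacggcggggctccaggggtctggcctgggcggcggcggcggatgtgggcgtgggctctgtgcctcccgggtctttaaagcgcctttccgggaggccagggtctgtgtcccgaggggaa
Hells, chr19:38930740-38931039, plus strand: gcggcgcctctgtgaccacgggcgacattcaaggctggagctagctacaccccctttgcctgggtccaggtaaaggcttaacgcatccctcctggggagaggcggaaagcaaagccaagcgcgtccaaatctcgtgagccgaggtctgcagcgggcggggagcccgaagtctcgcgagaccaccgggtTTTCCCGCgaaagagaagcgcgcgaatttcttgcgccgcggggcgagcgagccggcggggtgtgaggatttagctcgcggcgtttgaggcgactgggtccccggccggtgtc
Uhrf2, chr19:30030263-30030562, plus strand: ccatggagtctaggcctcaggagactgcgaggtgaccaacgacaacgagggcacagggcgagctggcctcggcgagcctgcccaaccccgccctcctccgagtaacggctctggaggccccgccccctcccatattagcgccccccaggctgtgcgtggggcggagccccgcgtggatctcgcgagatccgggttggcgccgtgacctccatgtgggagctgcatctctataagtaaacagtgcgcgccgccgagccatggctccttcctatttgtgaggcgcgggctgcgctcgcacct

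All 9 genes had promoter entries, with 14 start windows between them, and 3 of the 9 had an E2F word in a window: Dnmt1, Uhrf1 and Hells. A word was present for 2.60% of all 27025 genes with a window, and among the genes of the MCM helicase, the motor of the replication fork, 4 of 5 with a window did, against 12 of 32 in the wider list of S phase genes that includes them. The Dnmt1 window above held TTTCGCGC on the opposite strand, its first printed base 219 bases before the start, and TTTGGCGC at position 34 after it. In Uhrf1 the word TTTCGCGC began 185 bases before the start and in Hells TTTCCCGC began 62 bases before it. The other 2 Dnmt1 windows and the other Uhrf1 window held no such word. A word is a match of letters in a window and not a measured binding site. The libraries do not show which start was used. CpG dinucleotides were dense in the windows: their ratio of observed to expected was 0.91 for the Dnmt1 window above, 0.96 for Uhrf1, 1.06 for Hells and 0.83 for Uhrf2, and 13 of the 14 windows lay above the median of all promoters, which was 0.38. Every word searched contains a CpG, so the 2.60% over all genes is not a background of windows this dense in CpG. The share among such windows was not computed.

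Dnmt1, Uhrf1 and Hells rose in sal003. Uhrf2, the paralog of Uhrf1, did not pass, nor did the genes of de novo methylation and oxidation. Hells rose 3.28-fold, Uhrf1 2.44-fold and Dnmt1 1.76-fold (ratios of mean CPM), and in these 3 genes every sal003 library lay above every DMSO library. The other 6, Uhrf2, Dnmt3a, Dnmt3b, Tet1, Tet2 and Tet3, did not pass, and Tet2 alone had a negative estimate. So 3 of 9 were higher and 0 lower by edgeR at an adjusted p below 0.05, where 10.6% of 15816 tested genes were higher and 12.2% lower. At an unadjusted p below 0.05 edgeR gave 4 higher and 1 lower. The share over all genes at that threshold is not given here. DESeq2 called 3 of the 9 higher and 0 lower after adjustment, with 1833 higher and 2130 lower among all 15816 genes. It gave no adjusted p for 1246 of the 15816, which could not be called. Limma-voom called 4 of the 9 higher and 1 lower, with 2150 higher and 2410 lower among all 15816 genes. The libraries of the conditions did not overlap, with sal003 above, for 3 of the 9 and for 13.1% of all tested genes, and with sal003 below for 0 of the 9 and for 13.7%. The median log2 fold change was 0.31 over the 9 genes and -0.003 over all tested genes. In whole cultures, fewer cells of a type and less RNA per cell cannot be told apart.

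**Figure D1:**
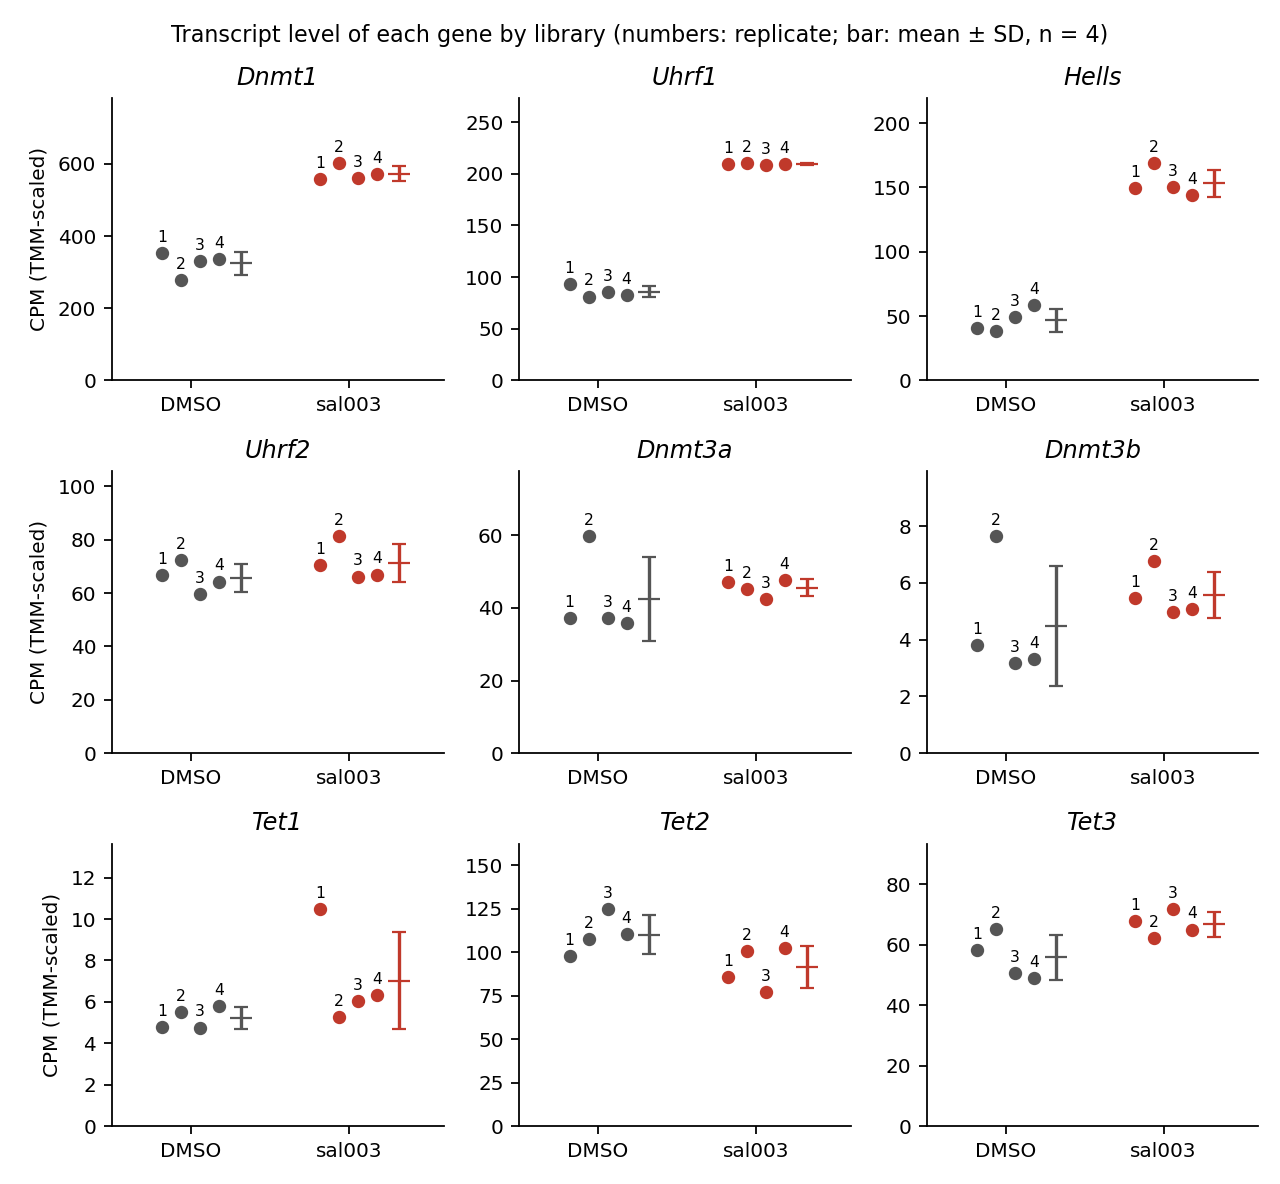
Each panel gives the CPM of 1 gene (vertical axis, from 0) in the 4 DMSO and 4 sal003 libraries, with the replicate number above each point and the mean ± SD beside the points. Dnmt1, Uhrf1 and Hells separate the conditions, while DMSO replicate 2 is the highest library for Dnmt3a, at 59.7 CPM, and for Dnmt3b, at 7.65 CPM.

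Dnmt1 encodes the maintenance methyltransferase (ENSMUSG00000004099, chromosome 9, 20907209 to 20959888, minus strand of mm10). Its level was 353, 279, 330.2 and 337 CPM in DMSO replicates 1 to 4 and 558, 602, 561 and 571 CPM in sal003 replicates 1 to 4. The lowest sal003 library was above the highest DMSO library, and DMSO replicate 2 was the lowest of all. The means were 325 ± 31.8 and 572.8 ± 20.02 CPM (SD, n = 4), which gave 0.82 ± 0.09 as log2 fold change and SE (edgeR adjusted p = 3.40e-06).

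Uhrf1 encodes the reader of half-methylated DNA (ENSMUSG00000001228, chromosome 17, 56303321 to 56323486, plus strand). It stood at 93.5, 81.3, 85.9 and 82.5 CPM in DMSO and at 209.8, 210.2, 208 and 209.7 CPM in sal003. The sal003 libraries lay close together, at a mean of 209 ± 0.889 CPM (SD, n = 4), and above all DMSO libraries, at 85.8 ± 5.49 CPM. Its log2 fold change was 1.29 ± 0.09 (edgeR adjusted p = 2.97e-08).

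Hells had the largest estimate of the 9 (ENSMUSG00000025001, chromosome 19, 38930915 to 38971051, plus strand). Its level was 40.5, 38.1, 49.6 and 58.2 CPM in DMSO and 149.6, 169, 149.97 and 144 CPM in sal003. The DMSO libraries were spread more widely for their level than the sal003 libraries, with a mean of 46.6 ± 9.18 CPM against 153 ± 10.8 CPM, and the conditions did not overlap. This was a log2 fold change of 1.71 with an SE of 0.13 (adjusted p = 1.14e-07 by edgeR). The calls of Dnmt1, Uhrf1 and Hells each held in all 18 alternative fits, including the test against a change of 1.5-fold (edgeR adjusted p = 0.0296, 3.85e-06 and 2.70e-06).

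Uhrf2, the paralog, did not pass (ENSMUSG00000024817, chromosome 19, 30030513 to 30093722, plus strand). It stood at 66.7, 72.2, 59.8 and 64.3 CPM in DMSO and 70.5, 81.3, 66.2 and 66.9 CPM in sal003, with sal003 replicate 2 the highest and the conditions overlapping. Its log2 fold change of 0.12 ± 0.11 was about the size of the SE (edgeR adjusted p = 0.555). Whether the changes of the paralogs differ was not tested as such.

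The de novo methyltransferases did not pass the test, and 1 control library decided how far their conditions overlapped. Dnmt3a (ENSMUSG00000020661, chromosome 12, 3806007 to 3914443, plus strand) stood at 37.1, 59.7, 37.1 and 35.8 CPM in DMSO and 47.0, 45.3, 42.3 and 47.6 CPM in sal003. DMSO replicate 2 was above every sal003 library, and the other 3 DMSO libraries were below every sal003 library. Its log2 fold change was 0.10 ± 0.16 (edgeR adjusted p = 0.751) with all libraries and 0.33 without DMSO replicate 2 (adjusted p = 0.0573), when the DMSO mean was 36.7 ± 0.764 CPM (SD, n = 3).

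Dnmt3b (ENSMUSG00000027478, chromosome 2, 153649450 to 153687730, plus strand) was scarce, at 3.80, 7.65, 3.17 and 3.31 CPM in DMSO and 5.47, 6.76, 4.99 and 5.07 CPM in sal003. Its counts were 108 to 285 per library. DMSO replicate 2 was again above every sal003 library and the other 3 DMSO libraries below. With all libraries its log2 fold change was 0.31 ± 0.39 (edgeR adjusted p = 0.668), and 0.71 without DMSO replicate 2 (adjusted p = 0.152). Both genes lacked a call in either fit, and both estimates were larger without that library.

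**Figure D2:**
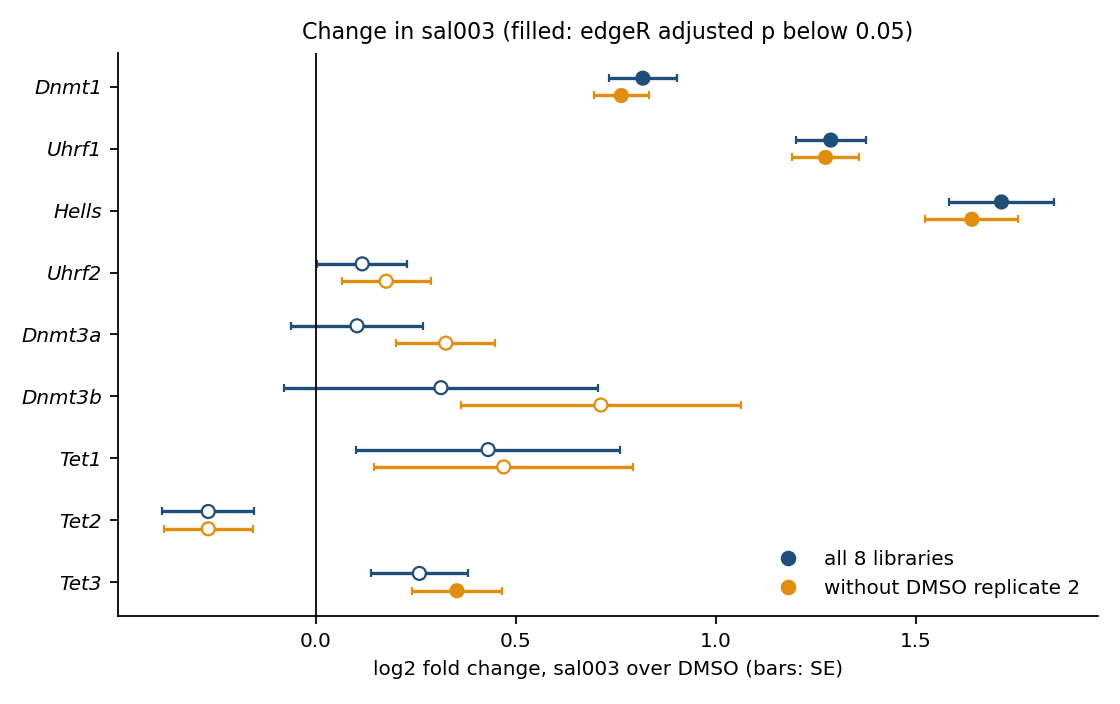
The horizontal axis gives the log2 fold change of sal003 over DMSO with its SE for each gene, from all 8 libraries (blue) and without DMSO replicate 2 (orange), and filled points passed edgeR's test at an adjusted p below 0.05. Hells, Uhrf1 and Dnmt1 are filled in both fits, Tet3 only without DMSO replicate 2, and the estimates of Dnmt3a and Dnmt3b move from 0.10 to 0.33 and from 0.31 to 0.71.

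The TET genes, which encode the oxidising enzymes, differed in sign among themselves and did not pass. Tet2 (ENSMUSG00000040943, chromosome 3, 133463679 to 133545139, minus strand) stood at 97.7, 107, 125 and 110.3 CPM in DMSO and 85.6, 100.4, 77.1 and 102 CPM in sal003. Its lowest DMSO library lay below the 2 highest sal003 libraries. The log2 fold change was -0.27 ± 0.12 (edgeR adjusted p = 0.118). It passed with limma-voom (-0.32, adjusted p = 0.0321) and when only genes with at least 10 CPM in at least 4 libraries were kept (-0.31, edgeR adjusted p = 0.0476).

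Tet3 (ENSMUSG00000034832, chromosome 6, 83362373 to 83459084, minus strand) stood at 58.4, 65.1, 50.8 and 49.1 CPM in DMSO and 68.0, 62.4, 71.9 and 65.0 CPM in sal003. DMSO replicate 2 was the highest DMSO library here too, and it alone overlapped the sal003 range. The log2 fold change was 0.26 ± 0.12 (edgeR adjusted p = 0.153). Without DMSO replicate 2 it passed, at 0.35 (adjusted p = 0.0212), and it passed with limma-voom with sample quality weights (0.345, adjusted p = 0.0220).

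Tet1 (ENSMUSG00000047146, chromosome 10, 62804570 to 62908996, minus strand) was scarce, at 4.76, 5.52, 4.76 and 5.79 CPM in DMSO and 10.5, 5.25, 6.04 and 6.31 CPM in sal003. Only sal003 replicate 1 was far above the DMSO range, and sal003 replicate 2 lay inside it. The log2 fold change was 0.43 ± 0.33 (edgeR adjusted p = 0.432) and 0.18 without sal003 replicate 1 (adjusted p = 0.852).

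Without DMSO replicate 2, then, 4 of the 9 genes were higher and 0 lower by edgeR, where 13.4% of tested genes were higher and 13.6% lower. For 6 of the 9, Dnmt1, Uhrf1, Hells, Dnmt3a, Dnmt3b and Tet3, every sal003 library was above the 3 remaining DMSO libraries, which held for 16.6% of all tested genes.

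Levels can be compared between genes only per length, here as CPM per kb of the gene's merged annotated exons. Dnmt1 was the most abundant of the 9 in both conditions, at 44.0 ± 4.31 CPM per kb in DMSO and 77.6 ± 2.71 in sal003. In DMSO it was followed by Uhrf1 at 20.1 ± 1.29, Uhrf2 at 7.65 ± 0.603, Tet2 at 6.52 ± 0.664, Hells at 6.47 ± 1.27, Tet3 at 3.35 ± 0.442, Dnmt3a at 2.55 ± 0.693, Dnmt3b at 0.878 ± 0.417 and Tet1 at 0.337 ± 0.034 CPM per kb. The ranges of Uhrf2 and Tet2, of Tet2 and Hells, and of Tet3 and Dnmt3a overlapped, so these neighbours in the order were not separated. In sal003 Hells, at 21.2 ± 1.496 CPM per kb, came next after Uhrf1, at 49.2 ± 0.209, and ahead of Uhrf2, at 8.29 ± 0.813. The rest kept the order Tet2, Tet3, Dnmt3a, Dnmt3b and Tet1, and in sal003 no neighbours in the order overlapped. Exon lengths ran from 4.26 kb in Uhrf1 to 16.87 kb in Tet2, and a gene whose cells use a short form is understated on this scale. Of the genes annotated across these loci, Dnmt3aos shared 133 exon bases with Dnmt3a on the opposite strand and had 6 counts in all 8 libraries together, and Gm42567, which shares 43 bases with Tet2 on the opposite strand, is not a row of the table.

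**Figure D3:**
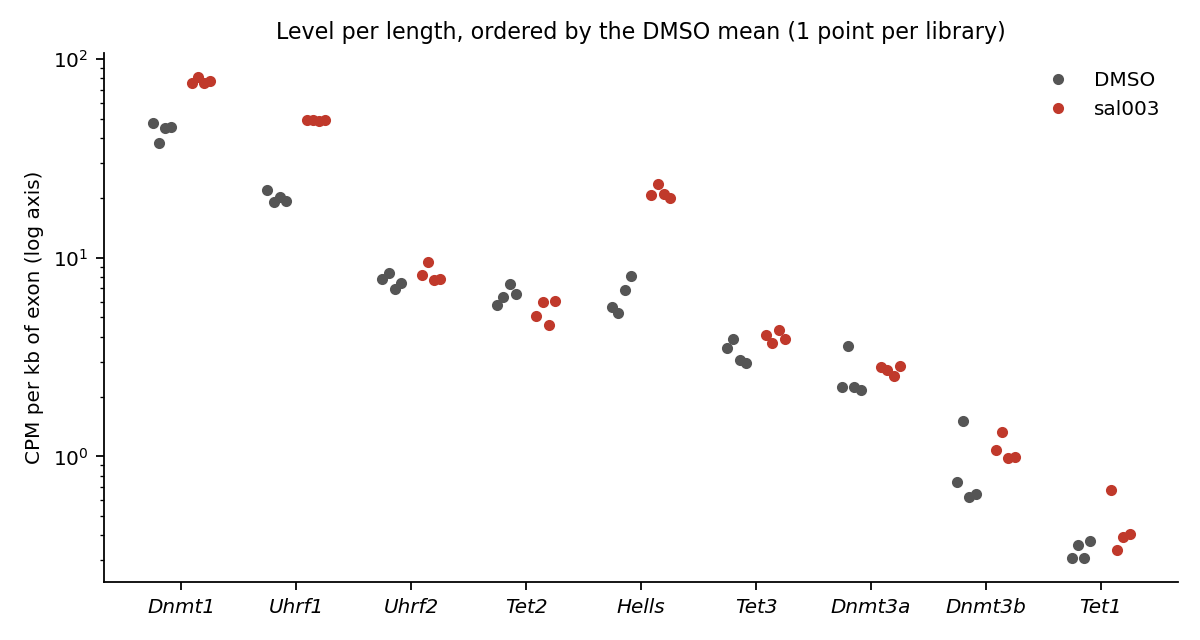
The vertical axis, on a log scale, gives CPM per kb of exon for each gene, with 1 point per library for DMSO (grey) and sal003 (red), and genes are ordered by their DMSO mean. Dnmt1 is highest at 44.0 and 77.6 CPM per kb, Tet1 is lowest at 0.337 and 0.454, and Hells rises above Uhrf2 and Tet2 in sal003.

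Counts set against each other within a library do not depend on scaling between libraries. For every 100 counts of Dnmt1 there were 26.5, 29.1, 26.03 and 24.5 counts of Uhrf1 in DMSO and 37.6, 34.9, 37.1 and 36.7 in sal003, so the pair did not rise in proportion and the conditions did not overlap. Dnmt3a stood at 10.5, 21.4, 11.2 and 10.6 counts per 100 of Dnmt1 in DMSO and at 8.43, 7.52, 7.55 and 8.35 in sal003, lower in all 4 sal003 libraries with or without DMSO replicate 2. For Tet2 the ratio to Tet3 was 167, 165, 246 and 225 counts per 100 in DMSO and 126, 161, 107 and 157 in sal003. These did not overlap either, but only narrowly, at 165 against 161 for the nearest libraries. How often the ratios of other gene pairs separate is not given here. Ratios of Dnmt3b to Dnmt1 and of Tet1 to Tet3 overlapped between the conditions with or without DMSO replicate 2. Dnmt3a per 100 counts of Dnmt3b overlapped with all libraries, at 975.6, 780.6, 1170.4 and 1080.2 in DMSO and 860.5, 669, 848 and 939.6 in sal003, and was lower in every sal003 library once DMSO replicate 2 was left out.

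The summed counts of Mcm2 to Mcm7, the subunits of the replicative helicase, served as a yardstick of replication transcripts. They rose with sal003, each subunit past the test, with a median log2 fold change of 1.08. Of 41 S phase genes 39 rose, with a median of 1.02, where 10.6% of all tested genes were higher and 12.2% lower. Against this sum Hells was still higher, with 6.10, 5.90, 7.88 and 8.31 counts per 100 MCM counts in DMSO and 10.5, 11.3, 10.8 and 10.4 in sal003. For Uhrf1 the ratio was 13.0 ± 1.05 in DMSO and 14.7 ± 0.439 in sal003 (SD, n = 4), 1.13-fold apart. The conditions did not overlap for Uhrf1, but only very narrowly, at 14.07 against 14.13 counts per 100 MCM counts for the nearest libraries. Dnmt1 was lower, at 49.2 ± 4.62 and 40.3 ± 0.821 counts per 100 MCM counts, so its transcript rose less than those of the helicase. Over all tested genes the ratio to MCM lay above in sal003 without overlap for 0.228% and below for 60.1%, so a lower ratio is what most genes showed. Uhrf2 (0.501-fold), Dnmt3a (0.496-fold), Tet3 (0.554-fold) and Tet2 (0.384-fold) were lower against MCM without overlap, as was Dnmt3b (0.572-fold), whose DMSO ratios were 0.573, 1.18, 0.505 and 0.473 counts per 100 and whose sal003 ratios were below those with or without DMSO replicate 2. Tet1 overlapped between the conditions. Ratios were described and not tested.

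**Figure D4:**
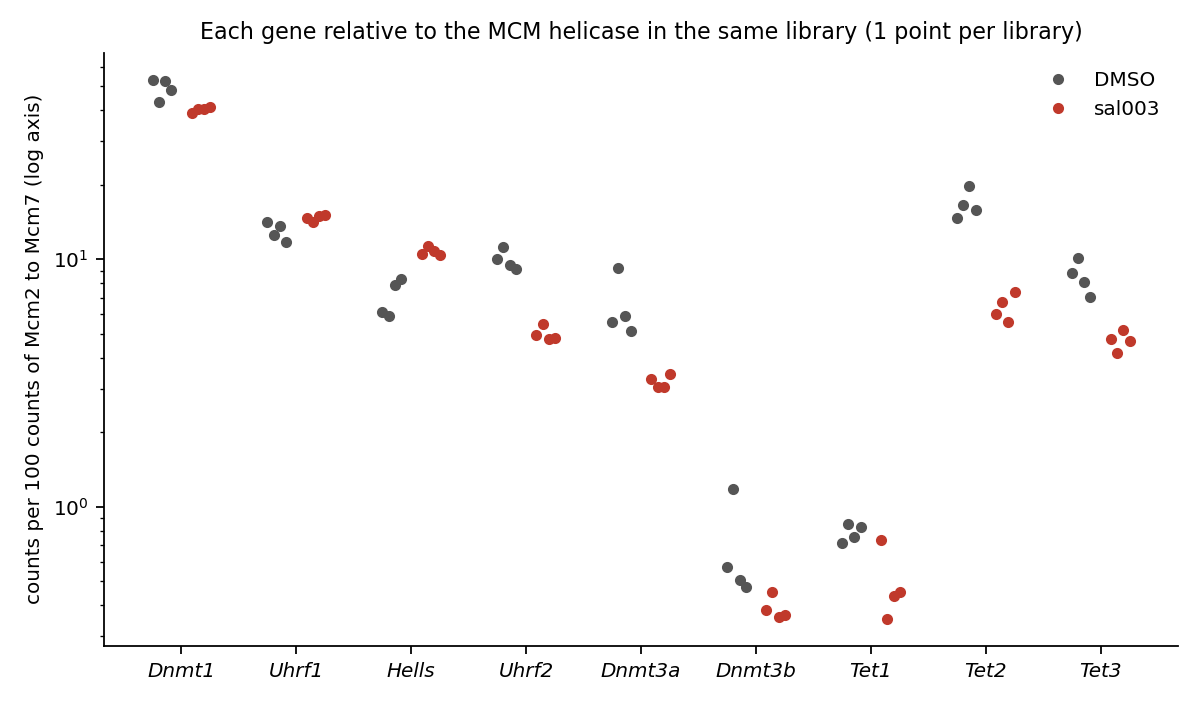
The vertical axis, on a log scale, gives the counts of each gene per 100 counts of Mcm2 to Mcm7 in the same library, with 1 point per library for DMSO (grey) and sal003 (red). Hells is higher in sal003, and Uhrf1 is higher with the nearest libraries almost touching. Dnmt1, Uhrf2, Dnmt3a, Dnmt3b, Tet2 and Tet3 are lower, and Tet1 overlaps.

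Most partners of maintenance methylation rose too. Of 16 genes tested 12 rose, 1 fell and 3 did not pass, and their median log2 fold change was 0.58. Over all tested genes 10.6% were higher and 12.2% lower. Pcna and Lig1 also belong to the list of S phase genes given above. Cdca7 (1.34 ± 0.17), whose product recruits HELLS to chromatin, went from 16.0 ± 1.09 to 40.8 ± 8.53 CPM, and its relative Cdca7l (1.59 ± 0.26) from 5.97 ± 1.66 to 17.9 ± 1.42 CPM (SD, n = 4). Lig1, the DNA ligase that joins Okazaki fragments and a methylated ligand of UHRF1, went from 70.6 ± 5.97 to 156 ± 6.91 CPM (1.14 ± 0.10, edgeR adjusted p = 3.50e-07). The sliding clamp Pcna, which holds DNMT1 at the fork, had a log2 fold change of 1.02 ± 0.14, and its binding partner Pclaf, listed in the table as 2810417H13Rik, of 1.20 ± 0.17. The member that fell, named after its value was seen, was Zfp57, which protects methylation at imprinted loci, from 29.6 ± 4.58 to 16.5 ± 2.41 CPM (-0.85 ± 0.18, edgeR adjusted p = 0.00252).

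Of 10 genes in the list of methyl-CpG readers and their relatives, 2 rose and 8 did not pass, with a median of 0.17. The share called was near that over all tested genes (10.6% higher and 12.2% lower). Mbd4, a glycosylase that removes the deamination product of methylcytosine, went from 10.0 ± 1.80 to 17.8 ± 3.31 CPM (0.83 ± 0.22, edgeR adjusted p = 0.0130), and was lost without sal003 replicate 2 (adjusted p = 0.0683). Mbd2, a repressor subunit, went from 52.1 ± 4.23 to 68.9 ± 1.12 CPM (0.40 ± 0.11).

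Genes tied to active demethylation moved both ways. Of 15 listed, 12 were tested, 2 rose, 4 fell and 6 did not pass, with a median of -0.49. Over all tested genes 10.6% were higher and 12.2% lower. Tdg, the glycosylase that acts after TET, went from 47.5 ± 9.15 to 74.7 ± 8.31 CPM (0.65 ± 0.14, edgeR adjusted p = 0.00324). Gadd45a, a stress and arrest gene that is also a target of p53, fell from 267 ± 37.6 to 99.1 ± 12.2 CPM (-1.43 ± 0.12, edgeR adjusted p = 2.79e-07), and its relative Gadd45g from 95.5 ± 8.84 to 51.4 ± 7.96 CPM (-0.89 ± 0.13). Apobec2, a muscle member of the deaminase family, fell by 0.74 on the log2 scale. Gadd45b, named after its value was seen, was the other lower gene, at -0.55 ± 0.18 (edgeR adjusted p = 0.0402), and lost its call without DMSO replicate 1 (0.123), 3 (0.0682) or 4 (0.0634), without sal003 replicate 1 (0.126), 2 (0.115) or 4 (0.0712), without a filter (0.0761) and with the replicate number as a block (0.0734). Parp1, which signals strand breaks, was higher by 0.29 ± 0.10 (log2; edgeR adjusted p = 0.0391), and it did not pass without DMSO replicate 3 (0.0798) or 4 (0.0650), without sal003 replicate 2 (0.122), 3 (0.0771) or 4 (0.100), or with the block (0.0718).

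Among 15 regulators of TET enzymes and enzymes of the supply of their cofactor, 2 rose, 1 fell and 12 did not pass, with a median of -0.06, where 10.6% of all tested genes were higher and 12.2% lower, so the share called was near that background. The mitochondrial dehydrogenases Idh3a (0.51 ± 0.10) and Idh2 (0.39 ± 0.10) rose, and both belong to enzymes that make 2-oxoglutarate, the cosubstrate of TET. Ogt, the glycosyltransferase that binds TET proteins, went from 139 ± 16.5 to 108 ± 4.20 CPM (-0.36 ± 0.10, edgeR adjusted p = 0.0162), a call lost without DMSO replicate 1 (adjusted p = 0.0668) or sal003 replicate 2 (0.0592).

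In the cycle that supplies methyl groups, 14 of 17 genes were tested, 6 rose, 1 fell and 7 did not pass, with a median of 0.31. Over all tested genes 10.6% were higher and 12.2% lower. The folate enzymes Shmt1 (1.401 ± 0.19), Mthfd1 (0.82 ± 0.10) and Shmt2 (0.46 ± 0.10) rose, and so did Ahcyl1 (0.47 ± 0.09), a relative of the hydrolase of S-adenosylhomocysteine. Shmt1 went from 22.5 ± 6.63 to 59.4 ± 0.902 CPM. Slc19a1, a folate carrier, and Mtr, the methionine synthase, were the other risers. The call of Mtr (0.32, edgeR adjusted p = 0.0492) was lost against 1.5-fold and under 11 other alternatives, among them those that left out DMSO replicate 1 (0.113), DMSO replicate 3 (0.0649), sal003 replicate 1 (0.100), sal003 replicate 2 (0.140) or sal003 replicate 3 (0.151). For Mat2a, which makes the methyl donor S-adenosylmethionine and is named after its value was seen, the means were 151 ± 11.6 CPM with DMSO and 176 ± 10.8 CPM with the inhibitor (edgeR adjusted p = 0.107, and 0.0115 without DMSO replicate 2).

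None of the other methyltransferase family passed in edgeR, DESeq2 or limma-voom, and none had an unadjusted p below 0.05 in edgeR. Dnmt3l, the cofactor of DNMT3 enzymes in germ cells, had 30 counts in all libraries together, and Dnmt3c, listed as Gm14490, had 82. Trdmt1, which methylates transfer RNA, had means of 5.97 ± 1.53 CPM with DMSO and 4.06 ± 0.719 CPM with the inhibitor (-0.56 ± 0.37, edgeR adjusted p = 0.343). Of 15 germline genes that promoter methylation keeps silent in body tissues, 7 had no count in any library and 3 could be tested. No germline gene passed in edgeR or in DESeq2, while edgeR at an unadjusted p below 0.05 and limma-voom after adjustment each gave 1 as lower, Brdt (limma-voom adjusted p = 0.0499). Summed over the list the level was 3.07 to 9.15 CPM in DMSO and 1.47 to 4.22 CPM in sal003.

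**Figure D5:**
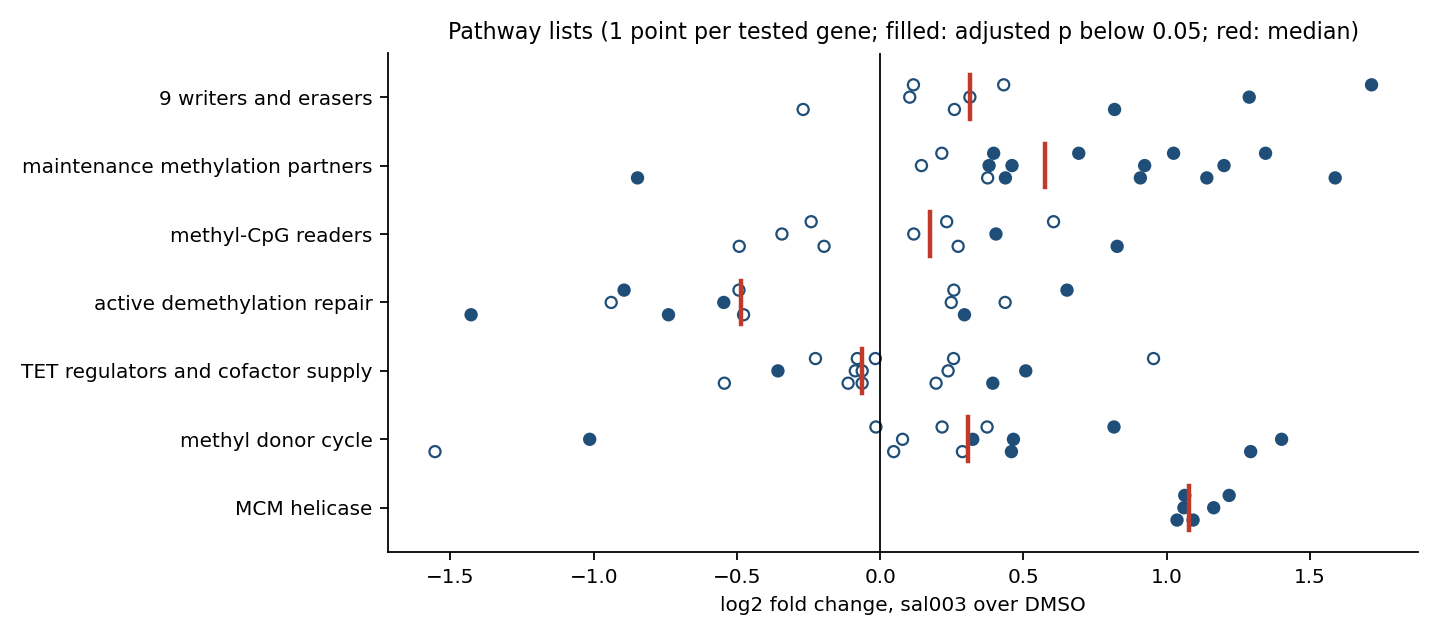
Each point is the log2 fold change of 1 tested gene (horizontal axis), grouped by list (vertical axis), with filled points past edgeR's test at an adjusted p below 0.05 and a red bar at the list's median. The medians are 0.31 for the 9 writers and erasers, 0.58 for the maintenance partners, 0.17 for the readers, -0.49 for active demethylation, -0.06 for TET regulators, 0.31 for the methyl donor cycle and 1.08 for the MCM helicase.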

How the data were processed

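RNA was measured in 8 cultures of mouse satellite cells. Per the labels' protocols, ribosomal and mitochondrial RNA was depleted from total RNA and stranded libraries were made. The labels give sal003 as 10 µM in the sample attributes and 10 mM in the treatment protocol, and 10 µM is used. The authors deposited whole-number counts per gene. The build mm10 and the tools featureCounts 1.4.4, STAR 2.3.0e and Trimmomatic 0.32 are named in the submitters' processing notes. How strand, overlaps and multiple alignments were counted is not given in the sources used here. Of counts from 1 to 20, between 75.6% and 83.4% per library were even, so a fit on halved counts was among the alternatives.

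Counts were analysed in R 4.3.3 with edgeR 4.0.16: filterByExpr (minimum count 10, minimum total 15), TMM scaling and robust quasi-likelihood tests of condition, two-sided and without other terms. Adjustment was by Benjamini-Hochberg over all 15816 tested genes and a threshold of 0.05. The SE is the log2 fold change divided by the root of F. Alternatives used other scalings and filters, halved counts, DESeq2 1.42.0, limma-voom with quality weights (limma 3.58.1), a replicate block, a test against 1.5-fold and leaving out each library. Replicate pairs differed by a chi-square of at least 24.3 per degree of freedom, so none was treated as a duplicate. The labels do not say whether libraries came from separate animals, so p-values measure the spread between these libraries.

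The genes, lists and rule for named genes (up to 5 per list, by p) were chosen with earlier results of these data known, and no p was adjusted over a list. Oga was not found by symbol in the table. Some genes of the lists are counted but not reported here by name. Positions and exon lengths come from GENCODE M21, and promoters from RefSeq (GRCm38.p6).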

Additional observations from a re-analysis of the deposited data

Results flagged for a closer look

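In 48 groups of 4 libraries (the CPM of the 9 genes and the 15 ratios, per condition), the highest or lowest library was set against the others by its gap over the range. Chance marks about 1 in 20 such groups. The check marked 5, all of them DMSO replicate 2 on the high side and none in sal003, and the 5 are not independent of each other. That library stood at 59.7 CPM for Dnmt3a and 7.65 CPM for Dnmt3b, where the other DMSO libraries had means of 36.7 and 3.43 CPM. Per 100 counts of Dnmt1 it had 21.4 counts of Dnmt3a and 2.74 of Dnmt3b. Per 100 MCM counts it had 1.18 counts of Dnmt3b.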

How the results depend on the processing

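No called direction reversed under the alternatives run. Dnmt1, Uhrf1 and Hells passed in all 18 fits, at log2 fold changes of 0.76 to 0.87, 1.25 to 1.34 and 1.64 to 1.86. Dnmt3a passed in 0 of 18, Uhrf2 in 0 of 18, and Dnmt3b and Tet1 in 0 of the 17 fits that kept them, since both were removed by the filter of 10 CPM. Tet2 passed with that filter (-0.31) and with limma-voom (-0.32), each giving 1 gene of the 9 as lower. Among all genes the filter gave 1859 of 9120 as lower and limma-voom 2410 of 15816. Tet3 passed with limma-voom (0.345), and leaving out 1 library moved it between 0.22 and 0.35, with a call without DMSO replicate 2 alone. Limma-voom also called 1 germline gene. Against a change of 1.5-fold, 266 genes were higher and 737 lower of all tested. That test left 23 of 39 calls in the S phase list, 5 of 13 among maintenance partners, 2 of 6 in active demethylation, 2 of 7 in the methyl donor cycle, and 0 among readers and TET regulators, where edgeR against no change called 2 and 3. With S phase genes in place of MCM as the denominator the fold was 0.908 for Dnmt1, 1.26 for Uhrf1 and 0.556 for Uhrf2, where MCM gave 0.818, 1.132 and 0.501. The cause of these shifts was not tested. Deviations of same-numbered libraries correlated at -0.005 to 0.035, too weakly to show whether the replicate numbers pair the libraries. DMSO replicates 3 and 4 correlated best with the sal003 library of the same number (r = 0.035 and 0.008). DMSO replicate 1 correlated best with sal003 replicate 3 (0.075) and DMSO replicate 2 with sal003 replicate 4 (0.034). With the replicate number as a block 1660 genes were higher and 1770 lower, and the 9 genes again gave 3 higher and 0 lower. Apart from the 1.5-fold test, 9 of 442 fits of the 26 pathway genes named by rule lost their call. Of the genes named outside the rule, Mtr lost its call in 11 such fits and Gadd45b in 8. Counts of Dnmt3b and Tet1 were the lowest, from 108 per library, and limit what could be detected for them.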

Other observations

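The genes whose log2 CPM followed each gene most closely over the 8 libraries were taken from those with a mean of at least 10 CPM, predicted genes left out. The libraries fall into 2 conditions and share their depth and scaling, and Pearson's r is given as a description. Hells was closest to Atad2 (r = 0.996), a chromatin ATPase, Alcam (0.995) and Myo5a (0.995). Uhrf1 was closest to Mybl2 (0.995), the cell cycle factor B-Myb, Lrp8 (0.995) and Ints10 (0.993), and Dnmt1 to Racgap1 (0.993), Iqgap1 (0.992) and Cdc20 (0.991). Dnmt3a was closest to Tuba1c (0.987), Cecr2 (0.984) and Klf10 (0.982), and Dnmt3b to Plcl2 (0.988), Samd1 (0.985) and Egln1 (0.983). These 6 genes had log2 fold changes between 0.05 and 0.30. Without DMSO replicate 2, where Dnmt3a and Dnmt3b were highest, r was 0.992, 0.969 and 0.963 for the Dnmt3a neighbours and 0.981, 0.977 and 0.976 for those of Dnmt3b. Uhrf2 was closest to Rev1 (0.959), Tet1 to Papss1 (0.962), Tet2 to Zbtb17 (0.956) and Tet3 to Mis18a (0.965).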
